A study of Mus musculus with 2 samples.

Results

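The genes described here make, sense and move cholesterol. They are 29 genes grouped by function: 18 enzymes that lead from acetyl-CoA to cholesterol, 5 genes that sense sterols, 3 genes of cellular efflux and its lipoprotein carrier, and 3 genes of lysosomal exit and storage. They were matched by symbol to 29 of the 43346 genes in the deposited tables, and the rule that chose them uses no measured value. Total RNA of the hindbrain, the part of the embryonic brain that gives rise to cerebellum, pons and medulla, was sequenced from mouse embryos of strain B6NCrl at 14.5 days. The 2 libraries, replicate 1 and replicate 2, form 1 group, for which the labels name no treatment and no altered allele, and each was made from 10 ng of RNA longer than 200 nt with spike-in RNAs added. Each library came from a single hindbrain per the labels, although the sex is given as pooled, both carry the same donor identifier, and the tissue was collected on 2 dates, so that replicate and collection date cannot be told apart.

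Cholesterol is built in the endoplasmic reticulum. The mevalonate steps turn acetyl-CoA into isoprenoid units, which are joined to squalene, folded into lanosterol and trimmed to cholesterol. When membrane sterol is low, Scap carries the SREBP transcription factors (made from Srebf1 and Srebf2) to the Golgi, where they are cut and released to switch on the synthesis genes, while the Insig proteins hold Scap back when sterol is plentiful. The brain is largely closed to cholesterol carried in blood and makes its own, which glia pass to neurons on apolipoprotein E. Surplus sterol leaves through the transporters Abca1 and Abcg1, whose genes are driven by the oxysterol-sensing LXR receptors.

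The proximal promoters of 24 of the 29 genes were taken from RefSeq (assembly GRCm38.p6, from 250 bases before to 50 bases after the annotated start), and the stretch before the start, without annotated exon, is shown for 4 of them because they cover an early enzyme, a later mevalonate enzyme, a sterol sensor and an efflux gene. Capitals mark each match, on either strand, to the sterol regulatory element core TCACCCCAC, the CCAAT box, or the GC box GGGCGG. On the opposite strand these read as ATTGG for the CCAAT box and CCGCCC for the GC box. Each is written 5′ to 3′ on the strand of its gene.
Hmgcs1, chr13:119690101-119690350, plus strand: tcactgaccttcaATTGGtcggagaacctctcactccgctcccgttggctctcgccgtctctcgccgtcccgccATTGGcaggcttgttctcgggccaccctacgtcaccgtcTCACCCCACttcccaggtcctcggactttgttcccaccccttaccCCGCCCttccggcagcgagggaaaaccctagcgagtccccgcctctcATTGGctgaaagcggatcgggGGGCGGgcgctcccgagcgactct
Mvd, chr8:122443423-122443672, minus strand: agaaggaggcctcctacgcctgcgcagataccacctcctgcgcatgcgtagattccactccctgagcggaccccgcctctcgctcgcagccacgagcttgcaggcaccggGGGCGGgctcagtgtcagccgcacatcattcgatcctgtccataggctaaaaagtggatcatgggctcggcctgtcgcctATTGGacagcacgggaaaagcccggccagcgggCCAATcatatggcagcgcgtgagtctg
Insig1, chr5:28071162-28071362, plus strand: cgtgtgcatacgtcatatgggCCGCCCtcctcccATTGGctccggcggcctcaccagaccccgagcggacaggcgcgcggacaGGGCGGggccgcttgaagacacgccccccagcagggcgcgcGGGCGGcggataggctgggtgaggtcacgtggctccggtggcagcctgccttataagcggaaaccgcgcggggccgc
Abca1, chr4:53159896-53160145, minus strand: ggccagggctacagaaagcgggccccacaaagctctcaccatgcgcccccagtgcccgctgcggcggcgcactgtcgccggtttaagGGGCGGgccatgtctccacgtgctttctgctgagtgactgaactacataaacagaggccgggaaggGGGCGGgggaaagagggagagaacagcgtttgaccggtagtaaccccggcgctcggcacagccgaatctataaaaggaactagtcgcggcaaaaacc
The Hmgcs1 stretch held the element TCACCCCAC 137 bases before its start, with 3 CCAAT boxes and 2 GC boxes around it. Mvd had 2 CCAAT boxes and 1 GC box, Insig1 had 1 CCAAT box and 3 GC boxes, and Abca1 had 2 GC boxes and no CCAAT box.

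Over the full 300-base window, the CCAAT box was found in 17 of 24 promoters, among them 13 of the 15 enzyme promoters matched, against 37.4% of all 32851 mouse promoters in the table. The GC box was found in 22 of 24, against 35.7% of all promoters and 62.2% of the 13540 promoters of detected genes. TCACCCCAC occurred in 1 of 24 promoters, that of Hmgcs1, against 0.551% of all promoters, and the looser form TCANCCCAC, which contains it, added no further gene and was present in 1.38% of all promoters. Fdps, Fdft1, Sqle, Abcg1 and Npc1, the 5 genes without a promoter here, were not searched. The annotated start lay within 50 bases of the main transcript's start for 16 of the 24 genes. These counts describe letters in one window and say nothing about binding.

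All 29 genes were detected, that is, had at least 1 TPM (a level per length of transcript) in both libraries. Of all genes 34.8% met that limit, and of protein coding genes 62.5%. The median of the 29 mean levels was 62.8 TPM against 17.2 TPM for all detected genes, 27 of the 29 lay above the median of detected genes, and 8 lay above 90% of them. Together they held 0.305% of gene TPM in replicate 1 and 0.352% in replicate 2. The libraries held 34929425 and 33510896 expected counts (estimated reads), and the 29 genes drew 554 to 31610 each, so none was near the limit that a count of 0 allows, 3 counts or 0.0859 and 0.0895 CPM.

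**Figure D1:**
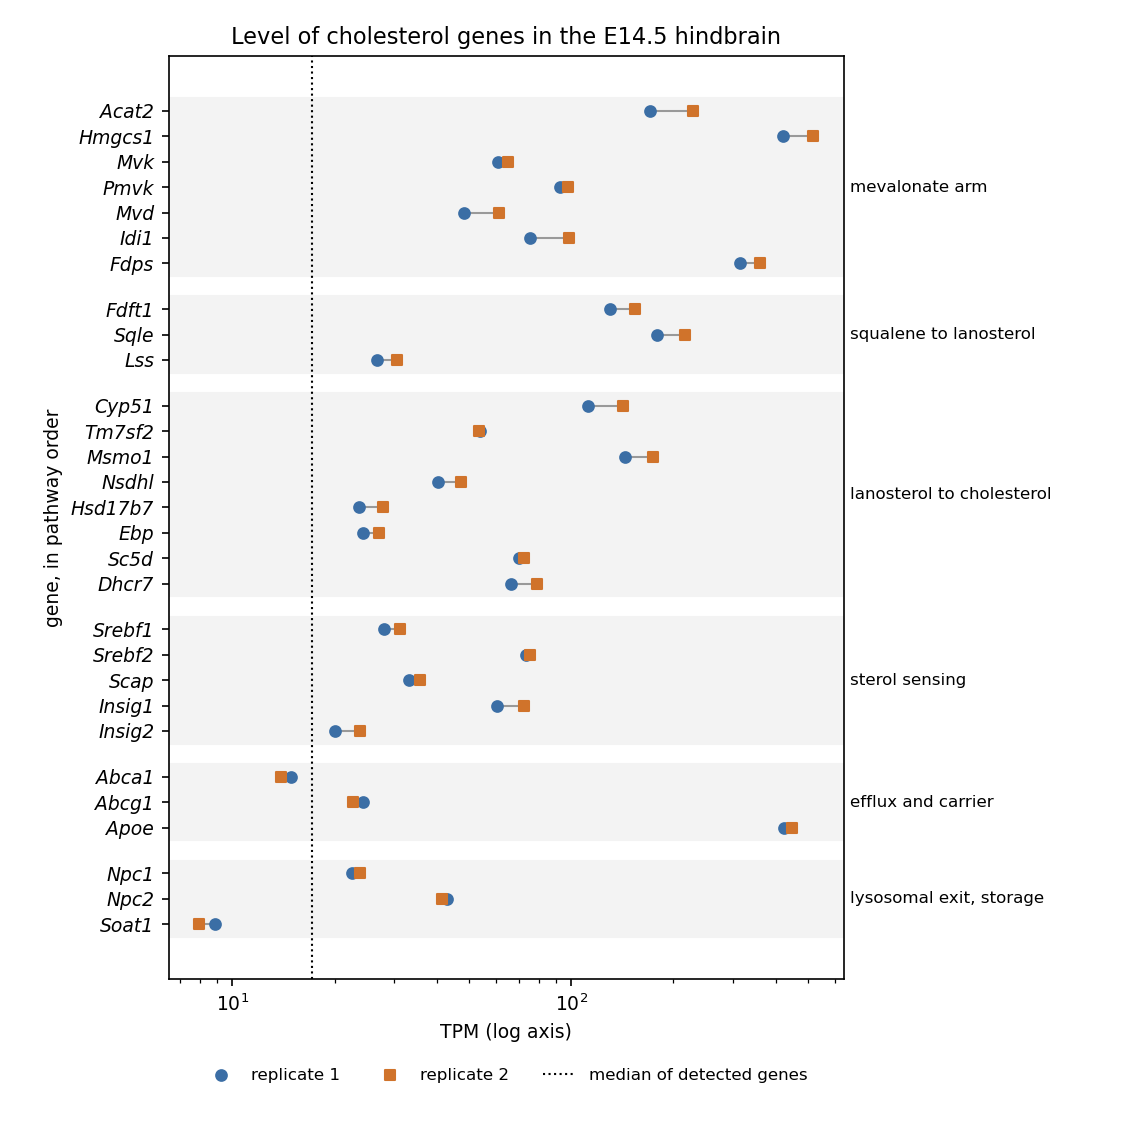
TPM of each of the 29 genes in both libraries, on a log axis, grouped by role; circles stand for replicate 1, squares for replicate 2, and the dotted line for the median of detected genes (17.2 TPM). Levels ran from 8.44 TPM for Soat1 to 468 TPM for Hmgcs1 as means of both replicates.

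Among the mevalonate enzymes, Hmgcs1, which makes HMG-CoA in the cytosol, had the highest mean of all 29 genes (identifier ENSMUSG00000093930.1; mm10 chr13:119690379-119708260, plus strand). It had 419.4 TPM in replicate 1 and 516.1 TPM in replicate 2, a mean of 467.8 ± 68.4 TPM (SD, n = 2), rank 254 among all genes. Fdps, which joins isoprenoid units to farnesyl diphosphate (chr3:89093588-89101959, minus strand), had 313.9 and 359.99 TPM, and Acat2, the cytosolic thiolase that opens the route (chr17:12942890-12960747, minus strand), had 169.9 and 228.2 TPM. Replicate 2 was the higher library for each of these 3 enzymes. The kinases Mvk and Pmvk, which phosphorylate mevalonate in turn, had 60.5 and 65.1 TPM and 92.8 and 98 TPM. Mvd, the decarboxylase that follows them, had 48.2 and 60.9 TPM, and Idi1, which isomerises the isoprenoid unit, had 75.5 and 98.4 TPM. The order Hmgcs1, Fdps, Acat2, then the other 4 was the same in both libraries.

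Of the steps through squalene, Sqle, the oxygen-dependent epoxidase, had 178.2 TPM in replicate 1 and 215.8 TPM in replicate 2 (chr15:59315077-59331192, plus strand). Fdft1, squalene synthase, had 129.8 and 154.1 TPM. Lss, which folds the epoxide to lanosterol, had only 26.6 and 30.6 TPM, well below both neighbours in the route in each library.

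Of the 8 genes that turn lanosterol into cholesterol, Msmo1, the C4 methyl oxidase, was highest with 143.4 and 173.6 TPM, followed by Cyp51, the lanosterol demethylase, with 111.6 and 142.1 TPM. Dhcr7, which catalyses the last step of one branch and is mutated in Smith-Lemli-Opitz syndrome, had 66.3 and 78.9 TPM, and Sc5d, the desaturase before it, had 70.2 and 72.2 TPM. Their values overlapped between the libraries, so that their order is not set. Tm7sf2, a sterol C14 reductase, had 53.9 and 53.5 TPM, and Nsdhl, a decarboxylating dehydrogenase of the C4 demethylation, had 40.3 and 47.3 TPM. The isomerase Ebp with 24.3 and 27.1 TPM and the ketoreductase Hsd17b7 with 23.6 and 27.7 TPM were lowest and could not be ordered either, since their ranges overlapped. All 8 exceeded 20 TPM in each library.

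Srebf2, which encodes the SREBP most devoted to cholesterol genes, had 73.4 TPM in replicate 1 and 75.6 TPM in replicate 2. Srebf1, whose products favour fatty acid genes, had 28 and 31.3 TPM (chr11:60199089-60222581, minus strand). The sterol sensor Scap had 33.2 and 35.7 TPM. Of its 2 retention factors, Insig1, itself an SREBP target, had 60.3 and 72.7 TPM and Insig2 had 20 and 23.8 TPM, so that Insig1 stood above Insig2 in both libraries.

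Apoe, the main lipoprotein component of the brain (chr7:19696109-19699188, minus strand), had 423.3 TPM in replicate 1 and 448.3 TPM in replicate 2, and its range lay inside that of Hmgcs1, so that the order of these genes is not set; Apoe was the higher in replicate 1. The efflux transporters were far lower: Abca1, which loads lipid onto apolipoproteins (chr4:53030787-53159895, minus strand), had 14.8 and 13.9 TPM, and Abcg1, which exports sterol to lipidated particles, had 24.2 and 22.6 TPM. Npc2, the soluble sterol carrier of the lysosome, had 42.8 and 41.5 TPM, and its membrane partner Npc1 had 22.6 and 23.9 TPM. Soat1, which esterifies cholesterol for storage, was lowest of the 29 with 8.89 and 7.99 TPM. In bulk tissue, fewer cells of a type and less RNA per cell cannot be told apart, so none of these levels is a level per cell.

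With 1 group there is no contrast between conditions, and the only comparison is replicate 2 against replicate 1. Whether a gene's counts in the pair of libraries lay further apart than counting alone would give was asked with an exact two-sided binomial test of rounded expected counts scaled to each library's gene total, Benjamini-Hochberg adjusted over 17664 genes at a threshold of 0.05. A difference between these 2 samples may be technical. Of the 18 synthesis enzymes, 11 were called higher in replicate 2 and 0 lower. Insig1 was the other gene called higher, which makes 12 of 29, where 15.7% of all tested genes were called higher. Called lower were 4 of 29, Srebf1, Abca1, Abcg1 and Npc2, where 18.7% of all tested genes were called lower. Deep genes are called more often, and all 29 had a mean count above 500: among the 9630 genes at that depth, 23.7% were called higher and 21.2% lower.

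**Figure D2:**
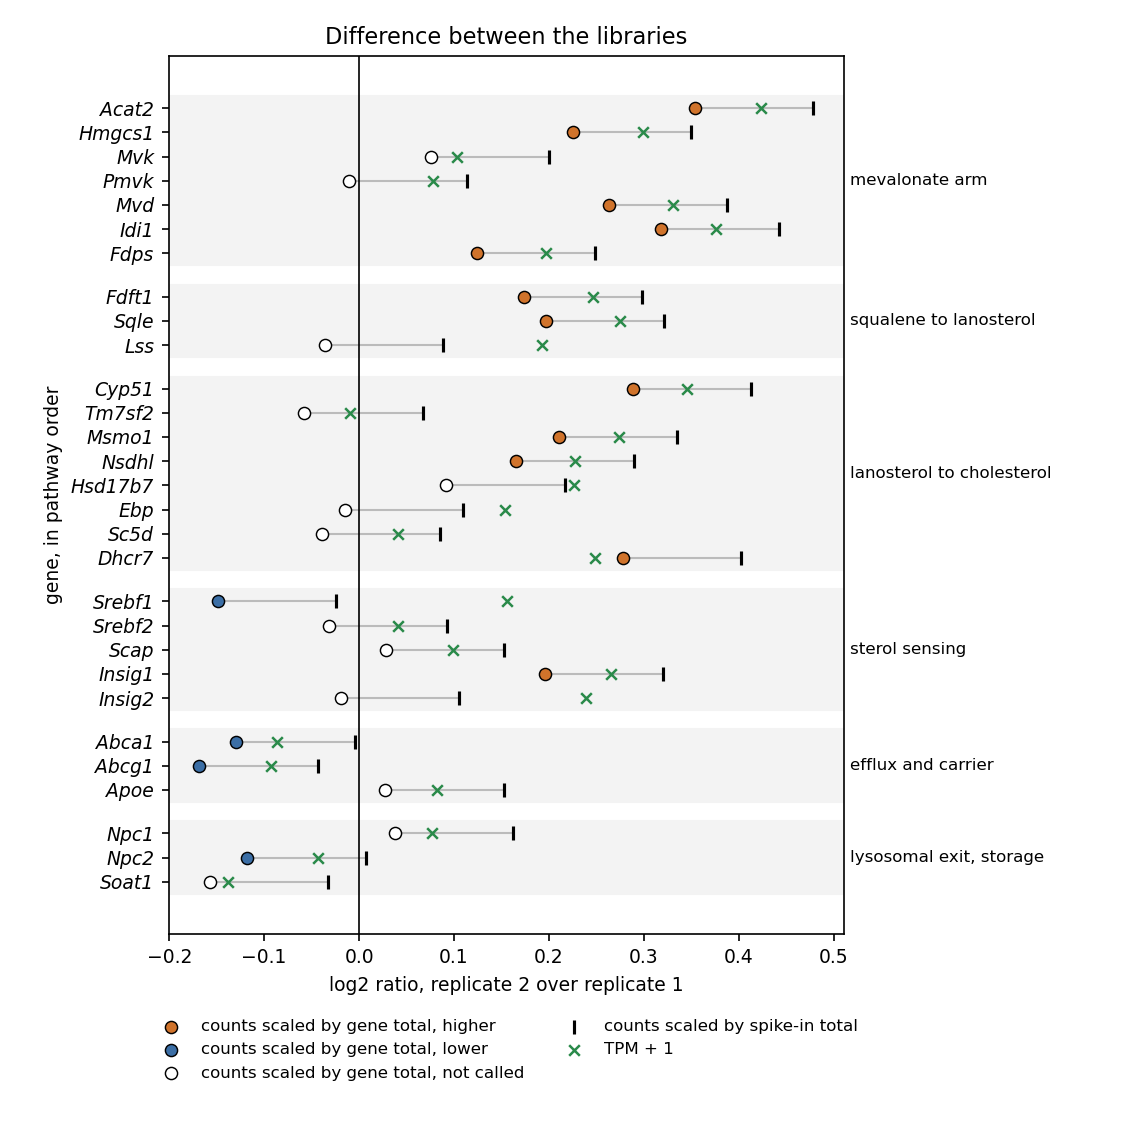
Log2 ratio of replicate 2 over replicate 1 for each of the 29 genes, grouped by role: circles give counts scaled to the gene total (filled where called), bars counts scaled to the spike-in total, and crosses TPM with a pseudocount of 1. The 11 called enzymes sit right of 0 on all 3 scales, while Srebf1 lies left of 0 by counts and right of 0 by TPM.

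Acat2 differed most. Its expected counts were 7700 and 9466, a log2 difference of 0.35 after scaling (adjusted p = 2.91e-55, binomial test). Cyp51 followed the same direction with 8995 and 10571 counts and a difference of 0.29 (adjusted p = 4.58e-42, binomial test). Idi1 had 4656 and 5583 counts and differed by 0.32. Hmgcs1, the deepest of the genes with 28102 and 31610 counts, differed by 0.23. Dhcr7 (2835 and 3307 counts) differed by 0.28 and Mvd (1714 and 1979 counts) by 0.26. All of these were higher in replicate 2, with adjusted p of at most 4.24e-07 (Mvd, binomial test). The other called enzymes were Msmo1, Sqle, Fdft1, Nsdhl and Fdps, with differences from 0.12 (Fdps) to 0.21 (Msmo1) and the largest adjusted p, 0.00264, for Nsdhl (binomial test). Insig1 had 3348 and 3690 counts and differed by 0.20 (adjusted p = 1.84e-07, binomial test). None of the 12 reached 1.5-fold.

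The 7 enzymes not called were Mvk, Pmvk, Lss, Tm7sf2, Hsd17b7, Ebp and Sc5d. Their scaled count differences ran from -0.06 for Tm7sf2 to 0.09 for Hsd17b7. Each stage held called and uncalled genes: 5 of 7 mevalonate enzymes, 2 of 3 on the way to lanosterol and 4 of 8 from lanosterol on were called higher. Summed over the 18 enzymes, TPM was 2048 in replicate 1 and 2450 in replicate 2 (2249 ± 284, SD, n = 2).

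Of the 6 efflux, lysosomal and storage genes, 0 were called higher and 3 lower. Abca1 had 3146 and 2767 counts, a log2 difference of -0.13 (adjusted p = 0.00301, binomial test), and Abcg1 had 1815 and 1554, a difference of -0.17 (adjusted p = 0.00358, binomial test). Npc2 differed by -0.12. Apoe, Npc1 and Soat1 were not called, with differences of 0.03, 0.04 and -0.16. The calls for Npc2 and Srebf1 were lost with TMM or DESeq2 factors, and none of the 29 was called lower when counts were scaled to the spike-in RNAs, under which 20 of 29 were called higher. Over all tested genes the shares called higher and lower were 20.8% and 14.7% with TMM, 19.5% and 15.6% with DESeq2, and 35.2% and 8.46% with spike-in scaling. These shares were not matched for the depth of the 29 genes. Of all calls, 45.7% were higher with the gene total, 58.5% with TMM, 55.6% with DESeq2 and 80.6% with spike-in scaling. The same 12 genes were called higher under each of these scalings.

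By TPM, with a pseudocount of 1, the median log2 ratio was 0.24 over the 18 enzymes, 0.16 over the 5 sensing genes and -0.06 over the 6 efflux, lysosomal and storage genes, beside 0.05 over 15661 genes with at least 1 TPM. Of the enzymes, 15 had a ratio above the highest of those 6 genes. TPM was higher in replicate 2 for 17 of 18 enzymes and 24 of 29 genes, and it was so for 65.4% of all genes of at least 10 TPM. By the authors' credibility bounds for TPM, 13 genes, the same 12 and Apoe, had separate intervals and were higher, against a background of 16.1%, and 0 were lower, against 6.5%. That background covers all 17664 tested genes and was not matched for depth. The spread between replicates relative to the mean ran from 0.461% for Tm7sf2 to 20.7% for Acat2, with a median of 9.67%, beside 6.12% over all genes of at least 10 TPM.

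Markers of other cell types also differed between these libraries, with calls made by gene-total scaling. By that scaling, 15.7% of all tested genes were called higher and 18.7% lower. Choroid plexus markers summed to 1912 and 1159 TPM with 7 of 8 detected, and nearly all of that sum was Ttr, with 1825 and 1094 TPM. Of the 8, 4 were called lower and 1, Kl, higher (0.89 and 1.47 TPM), while Otx2 (14.2 and 16.2 TPM), Prlr and Slc4a5 were not called. The 8 meningeal and fibroblast markers, all called lower, summed to 791 and 659 TPM. Their median scaled log2 difference was -0.35, and -0.22 with spike-in scaling. Oligodendrocyte lineage markers summed to 185 and 229 TPM, with 6 of 10 called higher and none lower, and Olig1 had 73.8 and 95.8 TPM. Erythroid markers summed to 12432 and 14210 TPM, with 6 of 10 called higher, among them the adult globin genes, and 2 lower. Those 2, the embryonic globin genes Hbb-y (534.4 and 136.8 TPM) and Hba-x (75.5 and 30.7 TPM), differed by a scaled log2 of -2.04 and -1.37. Neuronal markers summed to 4976 and 5418 TPM, with 3 of 10 called higher and 2 lower. Radial glia and astrocyte markers summed to 2810 and 2859 TPM, most of it Fabp7 (1847 and 1806 TPM, called lower). Of those 12 markers, 5 were called higher and 3 lower. Microglial markers summed to 164.6 and 161 TPM, with 0 of 10 called higher and 2 lower. Endothelial markers summed to 278 and 273.5 TPM, with 0 of 8 called higher and 3 lower. Hindbrain markers were present, 9 of 10 being detected at summed levels of 416 and 389.5 TPM, with 7 called lower. Their median scaled log2 difference was -0.19, and -0.07 with spike-in scaling. The 1 called higher, En2, was also the 1 not detected (0.05 and 0.79 TPM, 4 and 53 counts). Of 10 forebrain markers only Lhx2 was detected (10.4 and 15.1 TPM), with Emx1 at 0 in both. Of the 4 forebrain markers tested, 2 were called higher, Lhx2 and Six3 (1 and 19 counts), and 0 lower. The part of these cell types in the differences above was not tested.

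**Figure D3:**
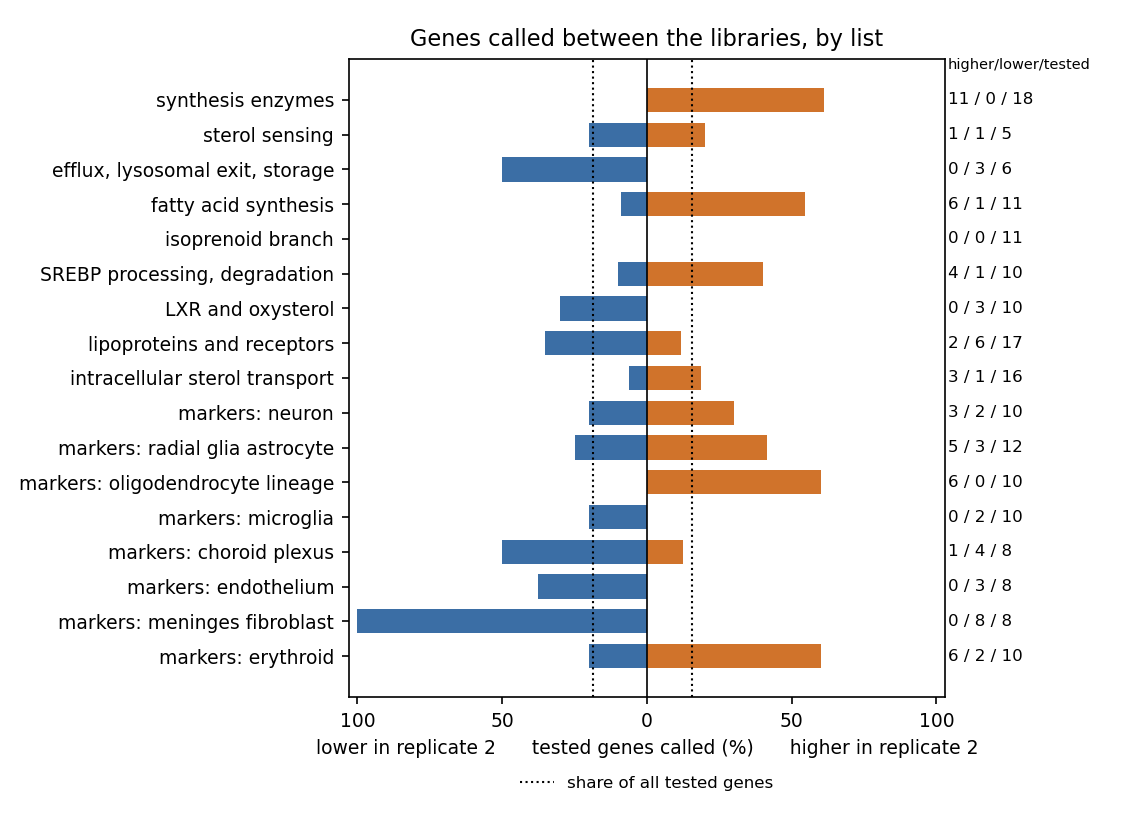
Genes called higher or lower in replicate 2, as a share of the genes tested in each list, for the groups of the 29 genes, the pathway lists and 8 cell type marker lists; dotted lines give the shares over all tested genes (18.7% lower, 15.7% higher). The enzymes (11 of 18), the oligodendrocyte lineage list (6 of 10) and the erythroid list (6 of 10) have the longest bars on the higher side, the meningeal list (8 of 8) on the lower side.

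The deposited transcript tables listed 137 transcripts of the 29 genes, and 8 genes had 1 transcript only. The transcript with the largest share of a gene's TPM was protein coding and the same in both libraries for all 29. It held at least 90% in both libraries for 17 genes, among them Hmgcs1, Fdps, Sqle, Srebf2 and Insig1, and under 50% in a library for 4, Ebp, Lss, Soat1 and Srebf1. The median share was 98.5%. The median difference of that share between libraries was 0.77 percentage points and the largest 14.5.

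**Figure D4:**
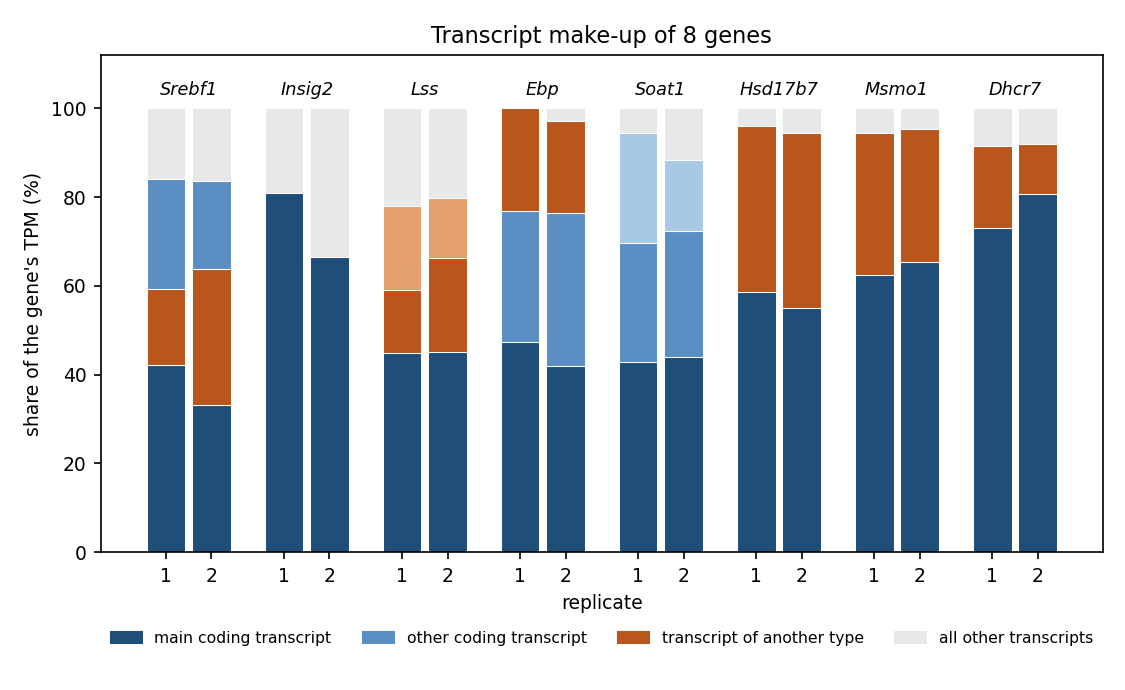
Share of each gene's TPM held by its transcripts in replicate 1 and replicate 2, for 8 genes chosen after their values were seen; colours give the annotated type, lighter shades further transcripts of that type, and grey all transcripts not above 10% in both libraries. The main share went from 81% to 66.5% for Insig2, from 42.2% to 33.2% for Srebf1 and from 73% to 80.7% for Dhcr7.

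Srebf1 was the 1 gene whose call and TPM pointed in opposite directions. Its counts were 1709 and 1483, a scaled log2 difference of -0.15 (adjusted p = 0.014, binomial test), while its TPM ratio was 0.16. Srebf1-204, a processed transcript of 367 nt, went from 4.77 to 9.57 TPM, or from 17.1% to 30.6% of the gene. The authors' credibility bounds of Srebf1-204 overlapped, at 0.84 to 9.00 TPM in replicate 1 and 5.48 to 14.6 TPM in replicate 2. The main coding transcript Srebf1-201 went from 11.8 to 10.4 TPM and Srebf1-207 from 6.95 to 6.2 TPM. Over coding transcripts alone Srebf1 had 20.2 and 18.8 TPM, a log2 ratio of -0.10. One read adds more TPM on a short transcript than on a long one. The authors' credibility interval of Srebf1 spanned 30.8% of its posterior mean in replicate 1.

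Insig2-201 held 81% and 66.5% of Insig2, at 16.2 and 15.8 TPM, and the higher TPM of the gene in replicate 2 lay in shorter coding transcripts: Insig2-214 of 674 nt was listed at 0 in replicate 1 and had 3.59 TPM in replicate 2. The counts of Insig2, 969 and 920, were not called different. Dhcr7-202 went from 48.4 to 63.7 TPM and from 73% to 80.7% of its gene, while Dhcr7-210, annotated for nonsense-mediated decay, went from 12.3 to 8.94 TPM. For Lss, the main transcript Lss-201 held 44.9% and 45.1%, Lss-202 of 352 nt had 3.8 and 6.5 TPM and the retained-intron transcript Lss-204 had 5.05 and 4.15. Of Msmo1, Msmo1-201 held 62.4% and 65.5% and the processed transcript Msmo1-206 held 32% and 29.9%. Of Hsd17b7, Hsd17b7-201 held 58.5% and 55% and the processed transcript Hsd17b7-204 held 37.5% and 39.5%. Apoe-209 held 81.8% and 82.3% of Apoe, and Mvk-201 held 72.3% and 71.7% of Mvk. For Soat1 the coding transcripts Soat1-201, Soat1-207 and Soat1-206 held 42.9%, 26.7% and 24.7% in replicate 1 and 43.9%, 28.4% and 16% in replicate 2, and its credibility interval was the widest of the 29 relative to the posterior mean, at 41.3% and 51.2%. Tm7sf2-201 held 57.4% and 55.1% of Tm7sf2, with no other transcript at 10% in both libraries. Ebp was split between the coding Ebp-201 (47.4% and 41.9%) and Ebp-203 (29.5% and 34.6%) and the retained-intron Ebp-202 (23.1% and 20.8%). Npc1-201 held 77.3% and 81.3% of Npc1, and the processed transcript Npc1-203 held 17.4% and 15.7%. The authors' credibility bounds for TPM overlapped between libraries for Insig2-214, Dhcr7-210 and Lss-202. Those of Dhcr7-202 did not, at 44.5 to 49.5 TPM in replicate 1 and 58.7 to 64.6 TPM in replicate 2. No test was made of these shares, which 2 libraries describe as a range only.

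Some reads may be shared with other genes. Expected counts were whole within 0.005 in both libraries for 20 of the 29 genes, and not for 9. The copies were low beside their partners for Acat3 (0.41 and 0.99 TPM) and Idi2 (0.04 and 0 TPM), while Ebpl had 18.3 and 18.9 TPM. Genes overlapping on the other strand included Ctsb at Fdft1 (135 and 154 TPM), Akap9 at Cyp51 (217 and 207 TPM), Rai1 at Srebf1 (30.3 and 26.9 TPM) and Rmc1 at Npc1 (39.8 and 45.1 TPM). Expected counts were whole for Cyp51, but not for Fdft1, Srebf1 and Npc1. The strand setting of the counting is not given in the sources used here, so reads of such pairs may not have been told apart. Vps51 overlaps Tm7sf2 on the same strand (57.6 and 61.7 TPM). Mir33, a microRNA inside Srebf2 that targets Abca1, was listed at 0 in both, in RNA selected for lengths over 200 nt.

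Other genes of the pathway were counted in 6 lists, with gene-total scaling unless another is named. Over all tested genes, 15.7% were called higher and 18.7% lower with that scaling. The shares were 20.8% and 14.7% with TMM, and 35.2% and 8.46% with spike-in scaling. In fatty acid synthesis, 6 of 11 tested genes were called higher and 1, Acacb, lower (8 and 0 with spike-in scaling). Its summed TPM was 634 and 742, and its most abundant genes were Scd2, a desaturase, with 255.00 and 307.6 TPM (scaled log2 difference 0.20), Acly, which supplies cytosolic acetyl-CoA, with 177.7 and 197.5 TPM (0.07), and the synthase Fasn with 86.4 and 100.98 TPM (0.12); all 3 were called higher. In the isoprenoid branch, which draws on the same mevalonate products for protein prenylation, dolichol and ubiquinone, 0 of 11 genes were called in either direction, but 1 was called higher with TMM and 7 with spike-in scaling. Fnta, a subunit of the prenyltransferases, had 85.6 and 87.4 TPM, Ggps1, which makes geranylgeranyl diphosphate, had 51.9 and 55.5 TPM, and Coq2 of ubiquinone synthesis had 45.8 and 51 TPM with an adjusted p of 0.0544 (binomial test). The summed TPM of that branch was 348 and 363.

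Of 10 genes that cut SREBPs or degrade the sensing proteins, 4 were called higher and 1 lower (8 and 1 with spike-in scaling). The ATPase Vcp had 371.3 and 418.7 TPM and was higher, whereas Ufd1, the cofactor of Vcp, had 69.4 and 53.2 TPM and was lower. Of 10 tested LXR and oxysterol genes, 0 were called higher and 3 lower (Nr1h3, Cyp7b1 and Gpr183, each with fewer than 200 counts in a library). With spike-in scaling, the median log2 ratio over all 11 genes of that list was -0.03. The leading genes of that list, Nr1h2, which encodes LXR beta, with 41.3 and 41 TPM, Rxrb with 26.3 and 25.5 TPM and the neuronal cholesterol hydroxylase Cyp46a1 with 14.4 and 15.7 TPM, were not called.

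Lipoprotein receptors and particle genes gave 2 higher and 6 lower of 17, but 3 and 3 with TMM and 7 and 1 with spike-in scaling, so that the balance depended on the scaling. The phospholipid transfer protein gene Pltp had 131.03 and 119.6 TPM and was lower, the receptor chaperone gene Lrpap1 had 120.5 and 128.9 TPM and was not called, and Lrp1, an Apoe receptor, was called lower by counts (-0.08) with 91.6 and 94 TPM, against the direction of its TPM. Over all tested genes, the share called higher was 15.7% by gene total, 20.8% with TMM and 35.2% with spike-in scaling. Intracellular sterol transport gave 3 higher and 1 lower of 16, but 6 and 0 with TMM and 11 and 0 with spike-in scaling. There Lamp1, a lysosomal membrane protein gene, had 257.7 and 276.4 TPM, Scp2, a sterol carrier gene, had 186.2 and 184.2 TPM, and Gramd1a, which moves sterol from plasma membrane to endoplasmic reticulum, had 122.7 and 139.1 TPM; of these Gramd1a was called higher.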

How the data were processed

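The study measured total RNA of 2 mouse hindbrain libraries at 14.5 days. Per the file headers and accompanying notes, the authors assigned reads to mm10 with annotation M4, each replicate alone; for the aligner, the quantification tool and strandedness, details were not given in the sources used here. Expected counts, as deposited, estimate the reads of each gene or transcript without any normalisation. TPM as deposited covers every feature, spike-in RNAs included (8.15% and 7.72% of TPM), and deposited FPKM accounts for transcript length and library size. Deposited credibility bounds, used as score values, surround the authors' posterior mean, so a TPM can lie outside them; their level is not stated.

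Symbols, gene types, coordinates and transcript names came from GENCODE M21 (GRCm38, the assembly of mm10), matched without version; gene models can differ from M4. Promoters and motifs came from RefSeq GRCm38.p6. Detection was 1 TPM in both libraries. Genes averaging 10 or more counts were tested after rounding expected counts, with an exact two-sided binomial test scaled by gene total, which was tested on simulated data. The simulated libraries differed only by counting error and set fold changes, so other variation between libraries was not covered. A bound or floor covers counting error only, as PCR copies of a molecule could not be told from other reads. TMM factors came from edgeR 4.0.16 and size factors from DESeq2 1.42.0, as scalings only. Calculations used matplotlib 3.10.9, pandas 2.3.3, scipy 1.17.1 and numpy 2.4.6 under Python 3.11.15, and R 4.3.3.

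The genes, lists, motifs and tests were chosen with earlier results of these data known. The text names all 29 genes, the 3 highest of each pathway list by mean TPM, and copies of the 29 genes. Transcripts holding at least 10% of a gene's TPM in both libraries are named where its main transcript held under 90%. Ttr, Olig1, Fabp7 and Lhx2 are named as the highest of their marker lists. Other markers are named with their counts, and the highest genes of the other marker lists are not named. Insig2-214, Kl, Otx2, Prlr, Slc4a5, Hbb-y, Hba-x, En2, Acacb, Nr1h3, Cyp7b1, Gpr183, Emx1, Six3 and the overlapping genes were named after their values were seen. A few genes that meet these criteria are not reported here. The background at a mean count of 500 was added after seeing the data.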

Additional observations from a re-analysis of the deposited data

How the results depend on the processing

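Detection of all 29 genes held in each alternative and with either replicate alone, where the median level was 60.3 to 65.1 TPM; it was 37.5 as FPKM and 71.3 TPM without spike-in RNAs and mitochondrial genes. The 12 genes higher in replicate 2 became 20 with spike-in scaling and 0 with a 1.5-fold minimum. The 4 lower became 2 with TMM, 2 with DESeq2 factors, and 0 with spike-in scaling, a 1.5-fold minimum or separate credibility intervals. The median log2 ratio over the 29 genes, 0.19 by TPM, was 0.0734 with TMM-scaled, 0.0651 with DESeq2-scaled and 0.0374 with total-scaled counts, the last added after seeing the data; TPM lies a median of 0.07 above total-scaled counts. The sensing genes' median of 0.16 became 0.0168 with TMM, 0.0085 with DESeq2 and -0.0191 with total-scaled counts. The median of the efflux, lysosomal and storage genes, -0.06, became 0.0010 with spike-in scaling, and Npc2 went from -0.04 to 0.0068. The background median over 15661 genes shifted with the scaling too. It was 0.05 by TPM, 0.0184 with TMM, 0.0101 with DESeq2, -0.0176 with total-scaled and 0.106 with spike-in scaled counts. On each of these scales the efflux, lysosomal and storage median lay below the background and the 29-gene median above it. The sensing genes' median lay above it by TPM and close to it with TMM, DESeq2 and total-scaled counts. Srebf1, 0.16 by TPM, was -0.11 with TMM, -0.12 with DESeq2, -0.0241 with spike-in scaling and -0.10 over protein coding transcripts only, an alternative also added after seeing the data. The cause of the shifts listed here was not tested. No paired analysis was possible because both libraries belong to 1 group. The number of libraries, 2, limits every spread given here.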
